A study of Homo sapiens with 2 samples.

Results

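The regulators of globin switching described here are 7 genes, *KLF1*, *BCL11A*, *ZBTB7A*, *MYB*, *SOX6*, *NR2C1* and *NR2C2*, taken by their symbols from the 36601 genes of both count tables. They were followed in 2 blood-generating heart-forming organoids (BG-HFOs, organoids 32.7 and 33.10), each sequenced as 1 single-cell library on day 14. Both were grown from hES3 NKX2.5-eGFP, a human embryonic stem cell line with a green fluorescent reporter in the NKX2.5 locus, and so carry the same reporter and genotype. Aggregates of these cells were embedded in Matrigel, the WNT pathway was first activated and then inhibited, and haemato-endothelial cytokines and growth factors were added. The organoids form 1 group, so every comparison is between cells of different lineages (n = 2 organoids), and nothing here compares treatments. All values thus come from 1 cell line at 1 day of culture.

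Human red cells make embryonic, then fetal, then adult globin, and the genes are replaced in turn at the alpha-globin and beta-globin clusters. *KLF1* is the erythroid factor that activates adult beta-globin and, in adult erythroid cells, the *BCL11A* gene. *BCL11A* and *ZBTB7A* (also called LRF) are zinc finger repressors that silence the gamma-globin genes *HBG1* and *HBG2* through the NuRD corepressor complex. *SOX6* is an HMG-box factor that represses the embryonic gene *HBE1* and acts with *BCL11A*, and it has separate roles in cartilage and muscle. *MYB* is a factor of haematopoietic progenitors that is lost as erythroid cells mature and acts upstream of *KLF1* and *BCL11A*. *NR2C1* and *NR2C2* (TR2 and TR4) are orphan nuclear receptors that bind direct repeats in the embryonic and fetal globin promoters.

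Cells were assigned to a lineage by raw counts of unique molecular identifiers (UMIs, 1 per captured transcript) of 1 gene per lineage. The gates were at least 50 UMIs of *HBZ* (the embryonic alpha-like globin), 10 of *PF4* (a platelet chemokine), 2 of *PTPRC* (the leukocyte antigen CD45), 2 of *CDH5* (an endothelial cadherin), 4 of *MYH6* (an atrial myosin), 10 of *COL3A1* (a stromal collagen) or 10 of *AFP* (an endodermal secreted protein). A cell entered a lineage when it passed exactly 1 gate, as 54.7% of 16792 kept cells did in organoid 32.7 and 55.8% of 19893 in organoid 33.10. No gate was passed by 35.0% and 33.5% of kept cells and several gates by 10.4% and 10.6%. The *HBZ* gate held 767 and 1754 cells, the *PF4* gate 1127 and 3080, the *PTPRC* gate 851 and 403, and the *CDH5*, *MYH6* and *COL3A1* gates 1488 to 2622 each. The *AFP* gate held 138 cells of organoid 32.7 and only 10 of organoid 33.10. All 51 lineage markers, 6 to 9 for each gate, were highest in their own gate in both organoids, so each label held. The libraries shared 100 cell barcodes, of which 4 lay in the same gate. Total counts were 191152562 and 233818881 UMIs. Levels are UMIs of a gene per 1000000 UMIs summed over the cells of a gate (CPM), which cannot tell fewer expressing cells from less RNA per cell. Reads come from transcript ends and introns and are not corrected for length, so levels are compared between gates and not between genes. Free RNA was not removed from these counts. A fit with 10% of the summed UMIs removed as free RNA gained 2 calls of the regulators and lost 2, and most of these are given below. The 10% was assumed and not measured, and was shared among genes by the profile of all barcodes pooled. Such a subtraction can leave a gene of low count with no UMIs.

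*KLF1* (ENSG00000105610) lies on chromosome 19 from 12884422 to 12887201 of GRCh38 on the minus strand and overlaps no other measured gene. *BCL11A* lies on chromosome 2 (60450520 to 60554467, minus strand), *ZBTB7A* on chromosome 19 (4043303 to 4066899, minus), *MYB* on chromosome 6 (135181308 to 135219173, plus), *SOX6* on chromosome 11 (15966449 to 16739591, minus), *NR2C1* on chromosome 12 (95020229 to 95073628, minus) and *NR2C2* on chromosome 3 (14947583 to 15053600, plus). *ZBTB7A* shares its strand with 1 overlapping gene model, where reads of both can be confused. The gene bodies differ in length from 2780 bases for *KLF1* to 773143 for *SOX6*, and the intronic part of each count was not measured. Genes on the opposite strand overlap *BCL11A*, *MYB* (its antisense gene *MYB-AS1*), *SOX6* (C11orf58 among them) and *NR2C2* (FGD5-AS1 and MRPS25).

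The windows of 250 bases before the start are shown for the regulator with the strongest restriction to HBZ-gated cells, *KLF1*, and for one found in every lineage, *NR2C2*. They are RefSeq sequences on GRCh38.p14, given 5′ to 3′ on the strand of the gene, at chr19:12887202-12887451 (minus) and chr3:14947333-14947582 (plus). Capitals mark TGATAA, a sequence that GATA factors bind, and CCAAT, read on either strand, and the marked letters do not overlap.
KLF1: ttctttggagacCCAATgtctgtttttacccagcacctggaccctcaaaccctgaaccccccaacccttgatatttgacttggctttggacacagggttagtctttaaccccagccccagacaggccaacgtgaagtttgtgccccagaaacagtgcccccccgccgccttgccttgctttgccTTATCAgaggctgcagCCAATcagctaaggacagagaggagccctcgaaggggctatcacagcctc
NR2C2: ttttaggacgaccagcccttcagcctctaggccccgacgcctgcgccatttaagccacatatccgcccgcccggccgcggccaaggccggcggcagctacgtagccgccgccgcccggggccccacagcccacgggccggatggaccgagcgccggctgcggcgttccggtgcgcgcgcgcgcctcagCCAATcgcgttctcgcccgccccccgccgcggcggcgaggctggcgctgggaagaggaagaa
The *KLF1* window holds TGATAA on the opposite strand, starting 66 bases before the start, and CCAAT at 50 and 238 bases. The *NR2C2* window holds CCAAT at 62 bases. Of 35116 such windows in the RefSeq table, 6.66% held TGATAA and 32.0% held CCAAT. Among the 16 windows listed for the 7 regulators, 2 held TGATAA (*KLF1* and 1 of 5 *SOX6* starts), 8 held CCAAT, 7 held CACCC (54.7% of all windows) and 0 held AGATAA (9.17% of all). These are matches of letters and not measured binding sites.

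*KLF1* was concentrated in HBZ-gated cells. It reached 222 CPM in organoid 32.7 and 211 CPM in organoid 33.10 there, from 2729 and 4675 UMIs. PF4-gated cells followed with 14.6 and 20.3 CPM, and PTPRC-gated cells had 1.61 and 5.84 CPM. The *MYH6*, *CDH5* and *COL3A1* gates lay between 0.549 and 4.08 CPM. The *AFP* gate had 2 UMIs in organoid 32.7 and 0 of 174023 UMIs in organoid 33.10, where 3 UMIs would be 17.2 CPM, so a level below that was not detectable there. The *HBZ* gate did not overlap any other gate. The *PF4* gate did not overlap a later gate either, but its 14.6 CPM in organoid 32.7 cannot be placed above the *AFP* gate of organoid 33.10. The 5 lowest gates overlapped with their neighbours. *KLF1* was detected in 72.6% of HBZ-gated cells of organoid 32.7 (exact 95% binomial interval 69.3 to 75.7%) and 73.0% in organoid 33.10, against 0.763% and 1.54% of COL3A1-gated cells, with a median of 12578 and 10031 UMIs per cell in the *HBZ* gate and 12812.5 and 13217 in the *COL3A1* gate. The intervals cover counting error only. After each cell was thinned to 3000 UMIs (98 and 131 HBZ-gated cells were too shallow and left out) the shares were 40.2% and 42.8% in the *HBZ* gate and 0.193% and 0.398% in the *COL3A1* gate.

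**Figure D1:**
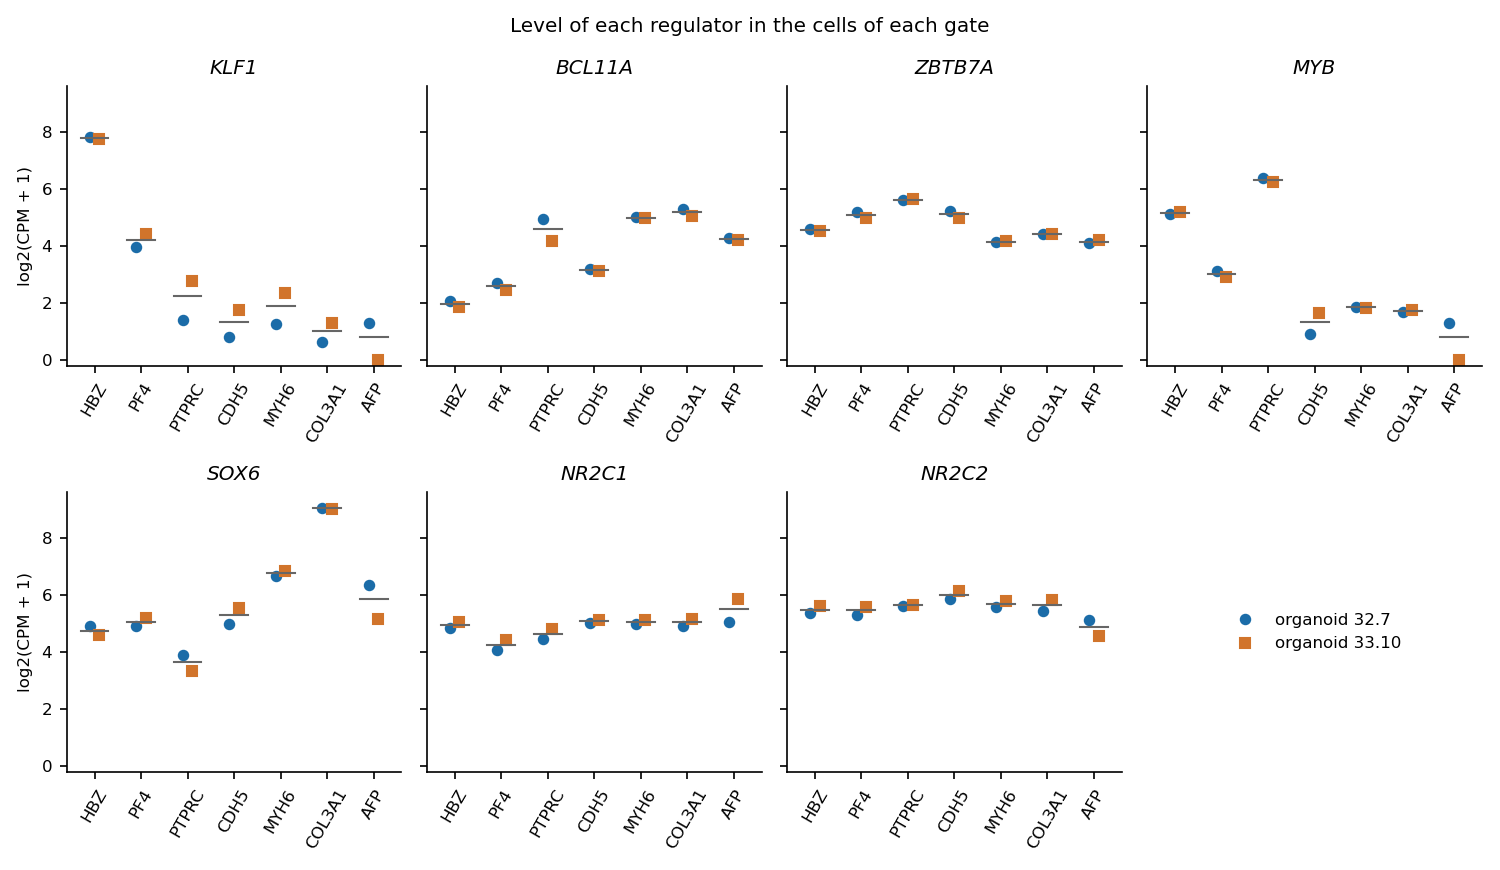
Level of the 7 regulators in the 7 gates, as log2(CPM + 1) on the vertical axis. Circles are organoid 32.7, squares organoid 33.10 and bars the mean of both. *KLF1* stands at 222 and 211 CPM in the *HBZ* gate, *SOX6* at 528 and 523 CPM in the *COL3A1* gate and *MYB* at 81.2 and 73.7 CPM in the *PTPRC* gate, while *NR2C1* and *NR2C2* lie between 15.9 and 69.7 CPM in every gate.

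Among the 7 gates, *MYB* was highest in 2. PTPRC-gated cells had 81.2 and 73.7 CPM (organoids 32.7 and 33.10) and HBZ-gated cells 33.5 and 35.1 CPM. PF4-gated cells had 7.60 and 6.58 CPM, and the 4 gates outside blood had 0 to 2.62 CPM. These groups of values were separate from each other in both organoids, apart from the *AFP* gate of organoid 33.10. That gate had 0 of 174023 UMIs, where 3 UMIs would be 17.2 CPM, so its level cannot be placed below that of PF4-gated cells. Cells past no gate, which are in none of these groups, had *MYB* at 22.7 and 21.2 CPM, from 565 and 786 UMIs. A *MYB* UMI was found in 32.5% and 31.5% of PTPRC-gated cells, 26.6% and 22.1% of HBZ-gated cells and 4.17% and 2.79% of PF4-gated cells, against 1.01% and 1.58% of CDH5-gated cells. Its UMIs were unevenly spread, with up to 47 in 1 PTPRC-gated cell and 16 in 1 HBZ-gated cell.

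*BCL11A* was lowest in HBZ-gated cells. They had 3.18 and 2.66 CPM, from 39 and 59 UMIs, and PF4-gated cells had 5.53 and 4.42 CPM. CDH5-gated cells had 8.11 and 7.71 CPM. The *AFP*, *PTPRC*, *MYH6* and *COL3A1* gates were all higher, from 17.1 CPM in PTPRC-gated cells of organoid 33.10 to 38.4 CPM in COL3A1-gated cells of organoid 32.7. The *PTPRC* gate was the least even, with 29.5 CPM in organoid 32.7 against 17.1 CPM in organoid 33.10, and overlapped the *AFP* gate. Only 30 of 767 and 39 of 1754 HBZ-gated cells held a *BCL11A* UMI (3.91% and 2.22%), against 33.3% and 32.2% of COL3A1-gated cells. Thinned to 3000 UMIs these shares were 1.35% and 0.678% against 11.1% and 9.95%.

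*SOX6* marked stromal cells. COL3A1-gated cells had 528 and 523 CPM and MYH6-gated cells 101 and 114 CPM. The *AFP*, *CDH5*, *PF4* and *HBZ* gates lay between 23.2 and 81.3 CPM, HBZ-gated cells at 29.0 and 23.2 CPM, and PTPRC-gated cells were lowest at 14.0 and 9.14 CPM. A *SOX6* UMI was found in 87.2% and 90.2% of COL3A1-gated cells and in 17.9% and 14.1% of HBZ-gated cells. Within the *COL3A1* gate *SOX6* was at 608 and 559 CPM in cells with at least 5 *LUM* UMIs and at 552 and 607 CPM in cells with *WT1* or *TBX18*, which overlapped, and lower in the remaining cells, at 336 and 412 CPM. *BCL11A* had the same order of remaining cells below the others, at 25.1 and 24.6 CPM against 34.6 to 44.1 CPM. These sub-gates were added after the data had been seen and were not tested.

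*ZBTB7A* was present in every gate, highest in PTPRC-gated cells at 48.1 and 48.4 CPM. CDH5-gated cells had 36.7 and 30.5 CPM and PF4-gated cells 35.4 and 30.5 CPM, and these gates overlapped. HBZ-gated cells followed with 23.0 and 22.0 CPM, and the *COL3A1*, *MYH6* and *AFP* gates lay between 16.1 and 20.5 CPM. *NR2C1* was lowest in PF4-gated cells, at 15.9 and 20.3 CPM, and its 5 highest gates, the *HBZ* gate with 27.5 and 32.5 CPM among them, overlapped. *NR2C2* was highest in CDH5-gated cells, at 57.5 and 69.7 CPM, and its next 5 gates, from 39.0 to 55.6 CPM, overlapped. HBZ-gated cells lay inside that range at 40.5 and 48.0 CPM. Both receptors were thus detected in every lineage.

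HBZ-gated cells were compared with PF4-gated cells, the other lineage that carried globin RNA. *KLF1* was higher in HBZ-gated cells by 3.88 on the log2 scale (SE 0.44, adjusted p = 1.16e-05, quasi-likelihood F test of edgeR on the summed UMIs, adjusted by Benjamini-Hochberg over all genes, as for every adjusted p below), *MYB* by 2.55 (SE 0.22, adjusted p = 1.11e-06) and *NR2C1* by 0.98 (SE 0.16, adjusted p = 0.000266). The 4 other regulators did not pass the test: the log2 differences were -0.49 for *BCL11A* (adjusted p = 0.189), -0.29 for *ZBTB7A* (0.117), -0.08 for *SOX6* (0.829) and 0.29 for *NR2C2* (0.125). Across all 21718 genes tested 45.5% passed, so 3 of 7 is no more than the background. Because gates of 1 organoid come from the same organoid, they are paired, and with the organoid as a block *ZBTB7A* passed as lower (-0.28, adjusted p = 0.0420) and *NR2C2* as higher (0.29, adjusted p = 0.0239). Scaling mattered as well. Scaled by library size alone in place of TMM (trimmed mean of M-values), which moved the median of all genes from -0.15 to -0.41, *BCL11A* (-0.76, adjusted p = 0.0322) and *ZBTB7A* (-0.54, adjusted p = 0.00339) passed as lower. With 10% of the summed UMIs removed as free RNA the *BCL11A* difference was larger and passed (-1.38, adjusted p = 0.00825). By library size alone the split of all calls moved from 4373 higher and 5504 lower to 2925 higher and 7315 lower.

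PF4-gated cells held fetal globin RNA at a low level of *KLF1* (14.6 and 20.3 CPM). *HBG2* was at 12408 and 12623 CPM and *HBE1* at 4091 and 4606 CPM in PF4-gated cells, against 25846 and 27430 CPM and 16999 and 14935 CPM in HBZ-gated cells. *HBZ* itself was at 149 and 291 CPM in PF4-gated cells, against 48520 and 42862 CPM in the cells gated on it. The gates fix part of this difference, since cells past both gates (25 and 164) were left out. PF4-gated cells held 1509 and 8103 *HBZ* UMIs over 1127 and 3080 cells, on average far below the gate of 50. *HBB*, the adult gene, gave 25 and 162 UMIs in the *PF4* gate and 18 and 40 in the *HBZ* gate, at most 5.82 CPM. *HBD*, another gene of the beta-globin cluster, was at 1168 and 1040 CPM in PF4-gated cells against 15.1 and 38.6 CPM in HBZ-gated cells. Of 17 *KLF1*-dependent erythroid genes tested, 10 were higher in HBZ-gated than in PF4-gated cells, 3 were lower and 4 did not pass. By library size alone 10 were higher and 3 lower. Of all genes 20.1% were higher and 25.3% lower. The alpha-globin chaperone *AHSP*, among the higher ones, was at 3.26 and 4.03 CPM in PF4-gated cells against 637 and 672 CPM in HBZ-gated cells.

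Against PTPRC-gated cells, HBZ-gated cells were higher in *KLF1* by 6.35 on the log2 scale (SE 0.53, adjusted p = 7.41e-07), in *SOX6* by 1.41 (SE 0.26, adjusted p = 0.000598) and in *NR2C1* by 0.62 (SE 0.16, adjusted p = 0.00763). They were lower in *BCL11A* (-2.76, SE 0.27, adjusted p = 2.74e-06), in *ZBTB7A* (-0.81, SE 0.14, adjusted p = 0.000434) and in *MYB* (-0.89, SE 0.20, adjusted p = 0.00253). Of the repressors, *BCL11A* and *ZBTB7A* were therefore lower in the *HBZ* gate than in the *PTPRC* gate, but *SOX6* was higher over the gate as a whole. The progenitor factor *MYB* was lower, and the activator *KLF1* and the receptor *NR2C1* were higher. *NR2C2* differed by 0.14 (SE 0.15, adjusted p = 0.499). The count of 6 of 7 stands beside 41.6% of all genes. *NR2C1* no longer passed when scaled by library size alone (0.33, adjusted p = 0.174), a scaling that moved the median of all genes from 0.00 to -0.27 and the split of calls from 3975 higher and 5058 lower to 2389 and 6888. *MYB* did not pass once 10% of the summed UMIs had been removed as free RNA (-0.86, adjusted p = 0.0813). *SOX6* did not pass once cells past several gates were kept (0.47, adjusted p = 0.0918).

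Against the mean of the *CDH5*, *MYH6*, *COL3A1* and *AFP* gates, all 7 regulators passed the test, beside 56.5% of all genes. *KLF1* was higher in HBZ-gated cells by 7.67 (SE 0.35, adjusted p = 3.24e-09) and *MYB* by 4.76 (SE 0.19, adjusted p = 1.17e-09). *BCL11A* was lower by the log2 difference of -2.26 (SE 0.25, adjusted p = 5.26e-06) and *SOX6* by -1.57 (SE 0.21, adjusted p = 3.04e-05). The smaller differences of *ZBTB7A* (0.64, adjusted p = 0.000509), *NR2C1* (0.38, adjusted p = 0.0235) and *NR2C2* (0.43, adjusted p = 0.00785) depended on TMM: by library size alone they were 0.12, -0.15 and -0.10 with adjusted p of 0.406, 0.418 and 0.578, so no direction is given for *NR2C1* and *NR2C2*. That scaling moved the median of all genes from -0.15 to -0.68 and the split of calls from 5411 higher and 6870 lower to 2680 and 10635. Without the thin *AFP* gate *NR2C2* did not pass either (0.24, adjusted p = 0.0750), and without cells deeper than 2 times the median *ZBTB7A* (0.31, adjusted p = 0.159), *NR2C1* (0.41, adjusted p = 0.0655) and *NR2C2* (0.38, adjusted p = 0.0766) did not.

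**Figure D2:**
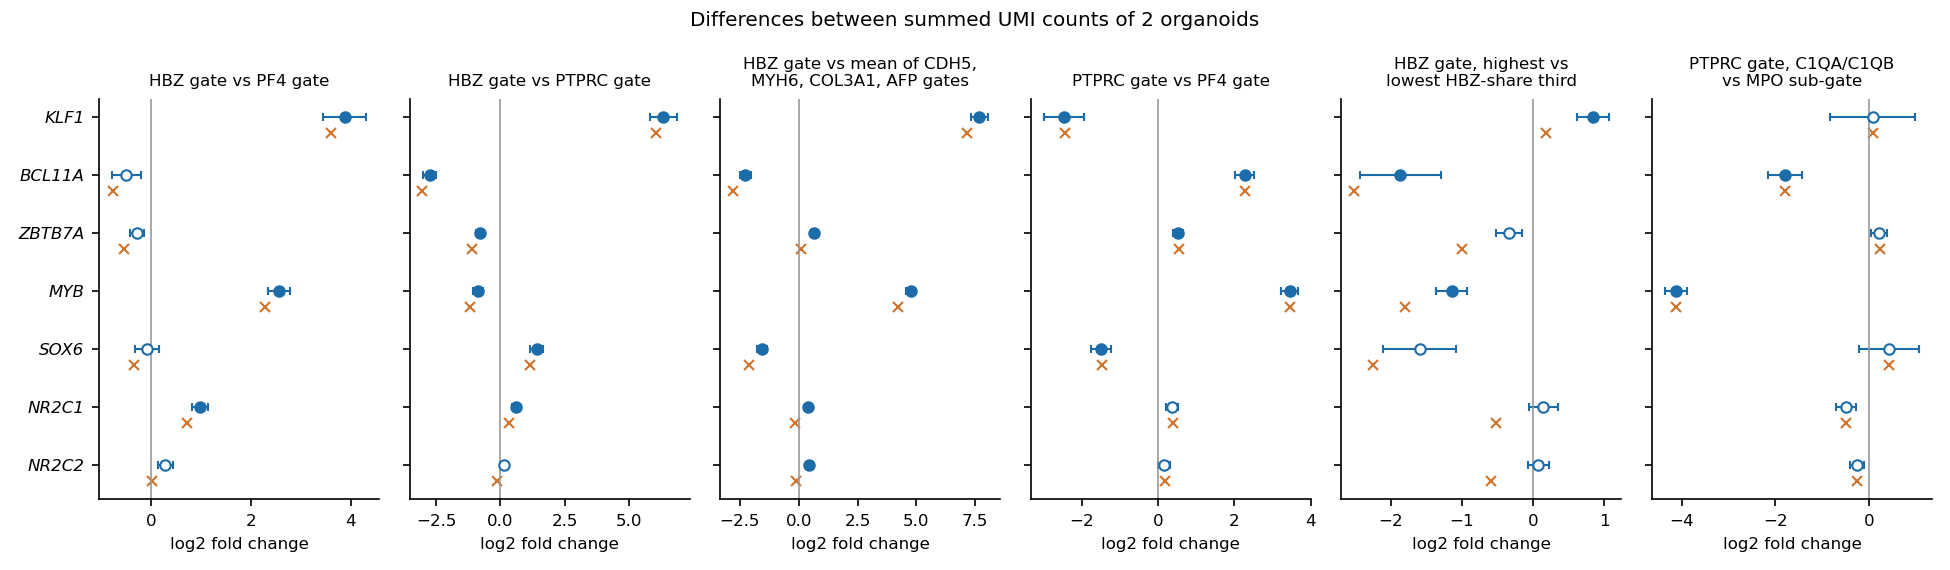
Log2 fold changes of the 7 regulators in 6 comparisons. Circles with SE bars are the TMM-scaled values, filled where the adjusted p is below 0.05, and crosses are the values scaled by library size alone. *KLF1* and *MYB* lie far to the right in the comparison of HBZ-gated cells with the mean of the 4 gates outside blood (7.67 and 4.76), and *NR2C1* and *NR2C2* change sign there between the scalings.

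PTPRC-gated cells were compared with PF4-gated cells to see which regulators separate the other blood lineages. *MYB* was higher in PTPRC-gated cells by 3.44 (SE 0.22, adjusted p = 9.1e-08), *BCL11A* by 2.27 (SE 0.25, adjusted p = 9.54e-06) and *ZBTB7A* by 0.52 (SE 0.14, adjusted p = 0.00723). *KLF1* (-2.47, SE 0.53, adjusted p = 0.00179) and *SOX6* (-1.49, SE 0.25, adjusted p = 0.000333) were lower. *NR2C1* (0.36, adjusted p = 0.0899) and *NR2C2* (0.15, adjusted p = 0.411) did not pass, although *NR2C1* did with the organoid block (0.36, adjusted p = 0.0145). The background of this comparison was 48.3%. With cells past several gates kept, *KLF1* (-1.06, adjusted p = 0.117) and *SOX6* (-0.53, adjusted p = 0.0533) did not pass.

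HBZ-gated cells were divided at 2.57% and 5.55% of their UMIs from *HBZ* into 3 terciles of about equal number over both organoids, the lowest (236 and 605 cells), the middle (232 and 608) and the highest (299 and 541). *MYB* was at 57.2 and 56.3 CPM in the lowest tercile, 28.1 and 26.9 CPM in the middle and 17.3 and 15.4 CPM in the highest. It fell by 1.14 on the log2 scale from the lowest to the highest tercile (SE 0.22, adjusted p = 0.00469). *BCL11A* was at 6.96 and 5.31 CPM in the lowest tercile and at 0.684 and 1.28 CPM in the highest, from 3 and 8 UMIs, and fell by 1.87 (SE 0.57, adjusted p = 0.0424). *SOX6* went from 68.0 and 38.7 CPM to 10.3 and 11.7 CPM, a log2 difference of -1.59 (SE 0.51, adjusted p = 0.0505) that missed the threshold. It passed under alternatives that include the organoid block (-1.54, adjusted p = 0.0350) and DESeq2 (-1.61, adjusted p = 0.0199). Over all settings the adjusted p of *SOX6* ranged from 8.93e-09 to 0.112. In CPM every regulator but *KLF1* was lower in the highest than in the lowest tercile in both organoids. Scaled by library size alone, as CPM is, the median log2 difference of all genes was -0.67. The mean log2 ratios of CPM of *NR2C1* (-0.50) and *NR2C2* (-0.56) were no larger in size than that. The share of all genes lower in both organoids was not computed.

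*KLF1* was nearly level across the same terciles, at 206 and 191 CPM in the lowest, 235 and 220 CPM in the middle and 225 and 227 CPM in the highest. Its TMM-scaled difference of 0.85 (SE 0.22, adjusted p = 0.0217) passed the test, but by library size alone it was 0.18 (adjusted p = 0.518), so the rise rests on the scaling. That scaling moved the median of all genes from -0.01 to -0.67 and the calls from 1422 higher and 1238 lower to 169 and 6807. *ZBTB7A* (-0.34, adjusted p = 0.227) did not pass with TMM and did by library size alone (-0.996, adjusted p = 0.00134). *NR2C1* (0.15, adjusted p = 0.669) and *NR2C2* (0.07, adjusted p = 0.776) did not pass and turned to -0.51 and -0.58 by library size alone, *NR2C2* with an adjusted p of 0.00868. The 3 of 7 regulators that passed stand beside 18.0% of 14741 genes. *MYB* no longer passed without cells deeper than 2 times the median (-1.03, adjusted p = 0.0632), nor did *BCL11A* (-2.27, adjusted p = 0.0502), which also missed with halved gate thresholds (-1.27, adjusted p = 0.234). *KLF1* no longer passed with gate thresholds halved (0.80, adjusted p = 0.0998) or doubled (0.79, adjusted p = 0.152). Nor did *KLF1* pass with 10% of the summed UMIs removed as free RNA (0.86, adjusted p = 0.0612).

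Summed markers of several other lineages fell from the lowest to the highest of these terciles, but those of the *MYH6* gate did not in both organoids. The 6 markers of the *MYH6* gate summed to 861 and 772 CPM in the lowest tercile against 792 and 903 CPM in the highest. This sum thus went down in organoid 32.7 and up in organoid 33.10. *MYH6* itself was at 20.6 and 8.09 CPM in the lowest tercile and 4.79 and 7.99 CPM in the highest. Over all HBZ-gated cells the sum was 806 and 794 CPM, against 177 and 206 CPM in CDH5-gated cells. *MYH6* was alike in these gates (11.6 and 8.02 against 10.9 and 8.41 CPM), so the sum did not follow *MYH6* there. All 6 mesenchymal markers were detected in the lowest tercile, summing to 232 and 138 CPM against 24.4 and 35.0 CPM in the highest, and the 8 leukocyte markers summed to 165 and 167 CPM against 47.9 and 36.1 CPM. The 7 endothelial markers summed to 286 and 236 CPM against 98.8 and 91.9 CPM. *SOX6* gave 786 and 717 UMIs per 1000 *COL3A1* UMIs in the lowest tercile, 726 and 777 in the highest and 278 and 359 in COL3A1-gated cells. Cells past the *COL3A1* gate were left out of the *HBZ* gate, whereas COL3A1-gated cells were chosen by their *COL3A1* UMIs. The gates thus fix part of the difference in this ratio between the *HBZ* terciles and COL3A1-gated cells. The part of these markers in the differences of *SOX6*, *BCL11A* and *MYB* was not tested.

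**Figure D3:**
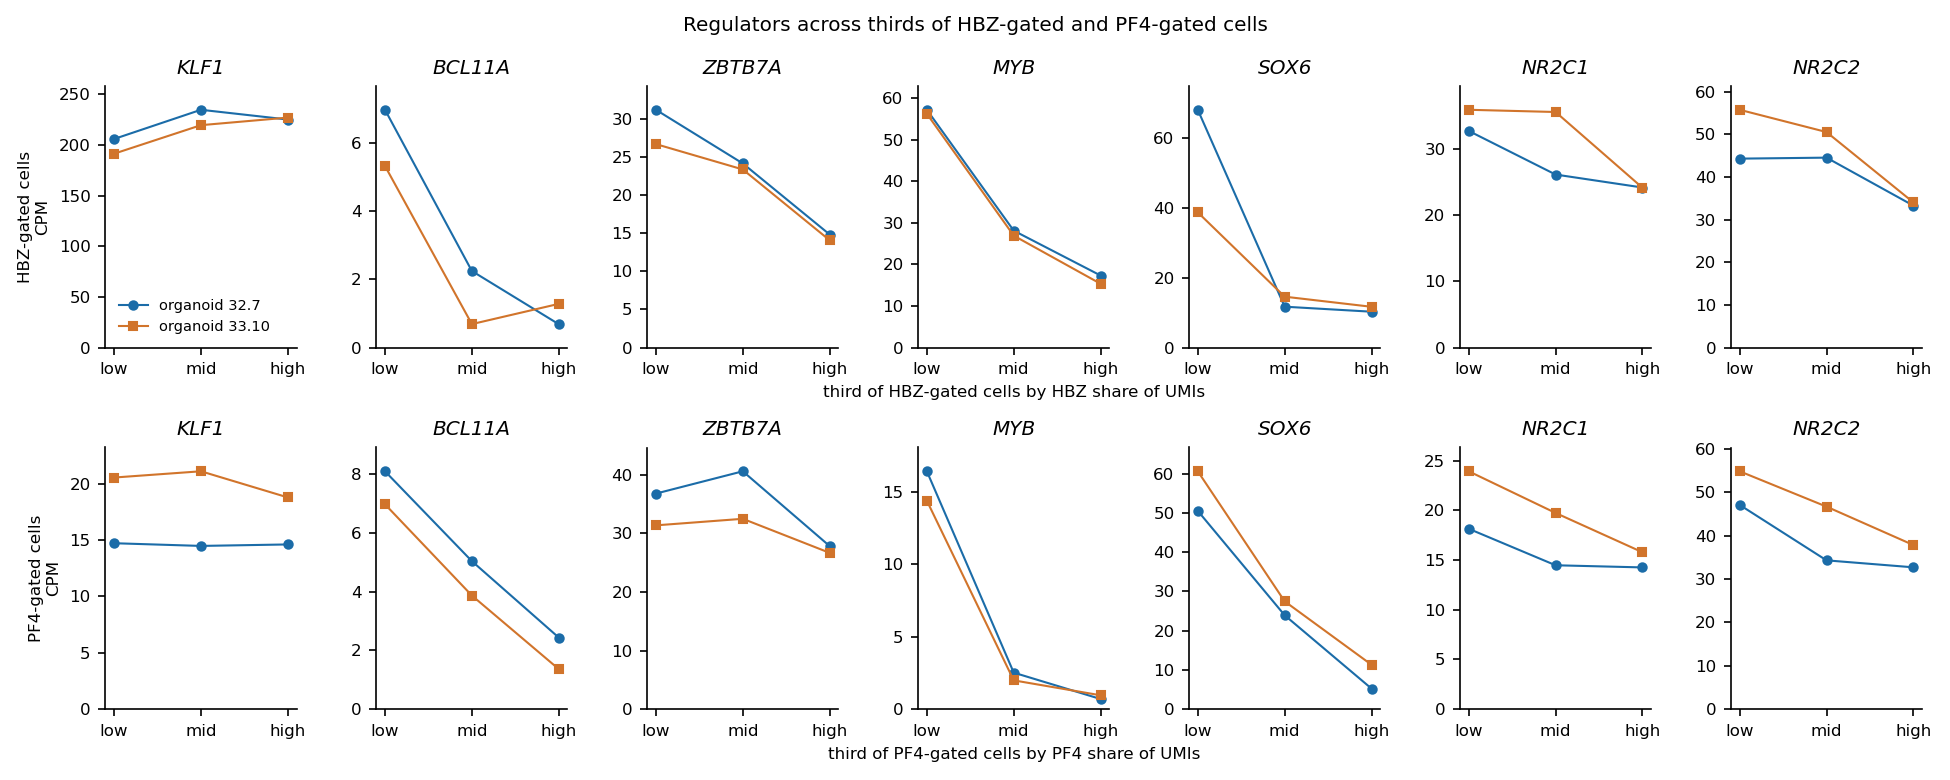
CPM of the 7 regulators in terciles of HBZ-gated cells by *HBZ* share (upper row) and of PF4-gated cells by *PF4* share (lower row), with 1 line per organoid and axes from 0. *MYB* goes from 57.2 and 56.3 CPM to 17.3 and 15.4 CPM in the upper row, while *KLF1* stays between 191 and 235 CPM.

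PF4-gated cells divided in the same way by *PF4* share, at 0.709% and 1.85%, showed a like order for *MYB*, a description added after the data had been seen. *MYB* was at 16.4 and 14.4 CPM in the lowest tercile and at 0.696 and 0.952 CPM in the highest, from 2 and 7 UMIs. *BCL11A* went from 8.09 and 6.97 CPM to 2.43 and 1.36 CPM and *SOX6* from 50.5 and 60.6 CPM to 5.22 and 11.3 CPM. *KLF1* held level at 14.7 and 20.5 CPM in the lowest tercile and 14.6 and 18.8 CPM in the highest, while globin genes went from 1.52% and 1.71% to 3.68% and 3.85% of UMIs. The mesenchymal markers summed to 243 and 205 CPM in the lowest tercile and 40.0 and 41.0 CPM in the highest, and the 8 leukocyte markers to 848 and 485 CPM against 375 and 386 CPM. *PTPRC* itself was at 9.56 and 5.87 CPM in the lowest and 2.09 and 1.497 CPM in the highest tercile, and *CDH5* at 11.8 and 8.62 CPM against 1.74 and 2.86 CPM, while the 7 endothelial markers together were at 833 and 804 CPM against 907 and 930 CPM. The part of these markers was not tested.

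PTPRC-gated cells were divided by their UMIs of *C1QA* plus *C1QB* (complement genes of macrophages) and of *MPO*, an enzyme of granule-forming myeloid cells. The *C1QA* or *C1QB* sub-gate held cells with at least 2 UMIs of that sum and under 2 of *MPO* (401 and 197 cells). The *MPO* sub-gate held cells with at least 2 UMIs of *MPO* and under 2 of that sum (222 and 59). The rest (228 and 147) reached 2 UMIs of both or of neither. *MYB* was at 177 and 148 CPM in the *MPO* sub-gate and at 6.96 and 12.8 CPM in the *C1QA* or *C1QB* sub-gate, lower there by the log2 difference of -4.12 (SE 0.24, adjusted p = 2.72e-06). *BCL11A* was at 55.4 and 36.3 CPM against 13.6 and 13.8 CPM (-1.78, SE 0.36, adjusted p = 0.00536). The 5 other regulators did not pass, with differences from -0.49 for *NR2C1* (adjusted p = 0.177) to 0.44 for *SOX6* (adjusted p = 0.725), and 2 of 7 stands beside 15.0% of all genes. *SOX6* is undecided here, with 14.5 against 4.77 CPM in organoid 32.7 and 7.55 against 17.0 CPM in organoid 33.10. A *MYB* UMI was found in 69.8% and 66.1% of *MPO* cells and 8.48% and 8.63% of *C1QA* or *C1QB* cells, and a *BCL11A* UMI in 38.7% and 37.3% against 12.7% and 12.2%. The remaining PTPRC-gated cells had the highest *KLF1* of the gate, 4.82 and 14.9 CPM, beside erythroid markers that summed to 288 and 599.7 CPM there against 54.4 to 157 CPM in the other sub-gates; their part in *KLF1* was not tested.

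**Figure D4:**
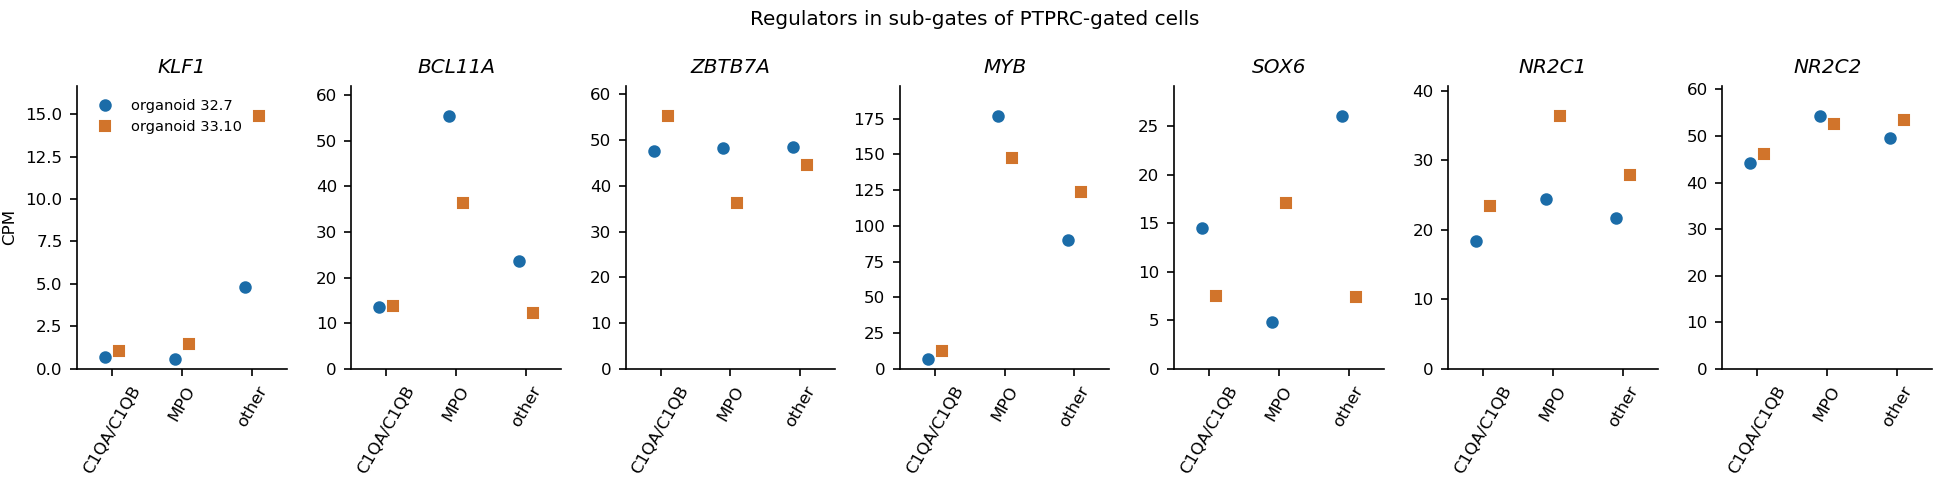
CPM of the 7 regulators in 3 sub-gates of PTPRC-gated cells, circles for organoid 32.7 and squares for organoid 33.10, with axes from 0. *MYB* is at 177 and 148 CPM in the *MPO* sub-gate and at 6.96 and 12.8 CPM in the *C1QA* or *C1QB* sub-gate.

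Cells past 2 gates were kept out of these comparisons, and doublets can be among them. Cells past the *HBZ* and *PF4* gates (25 and 164) had 170 and 119.9 CPM of *KLF1*, between the 2 pure gates. Cells past the *HBZ* and *PTPRC* gates (14 and 22) had 28.1 and 123 CPM of *MYB*, from 9 and 70 UMIs, and so differed between organoids.

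Cofactors of these regulators were compared over a list of 29 genes, the *GATA1*, NuRD, lysine demethylase and DNA methyltransferase partners among them. Against the 4 gates outside blood, 20 were higher in HBZ-gated cells (24.9% of all genes), 1 was lower and 8 did not pass, with a median of 0.48 against -0.15 for all genes; by library size alone 9 were higher and 11 lower, so the direction of the list rests on the scaling. *IKZF1*, a zinc finger factor of blood cells, was higher by 5.54 (SE 0.15, adjusted p = 6.53e-11), *GATA1*, the master erythroid and megakaryocytic factor, by 5.17 (SE 0.37, adjusted p = 1.18e-07) and *NFE2*, which binds the globin locus control region, by 4.67 (SE 0.22, adjusted p = 5.29e-09), and all 3 passed under both scalings. Against PF4-gated cells, 9 were higher and 5 lower, which turned to 7 and 11 by library size alone. Against PTPRC-gated cells 10 were higher and 3 lower, which turned to 5 and 12. The shares of the list that passed with TMM were near the 45.5% and 41.6% of all genes in these comparisons.

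The partners of *GATA1* did not follow *KLF1* together. *GATA1* was at 114 and 105.5 CPM in HBZ-gated cells and at 266 and 259.6 CPM in PF4-gated cells, a difference that did not pass with TMM (-0.9995, adjusted p = 0.0877) and did by library size alone (-1.26, adjusted p = 0.0435). *TAL1* was lower in HBZ-gated than in PF4-gated cells (-1.02, SE 0.31, adjusted p = 0.0151), whereas the adaptor *LMO2* (2.09, SE 0.17, adjusted p = 7.66e-07) and its partner *LDB1* (1.90, SE 0.14, adjusted p = 2.95e-07) were higher. *LMO2* was also higher in the highest than in the lowest tercile of HBZ-gated cells (1.08, SE 0.13, adjusted p = 0.000537, and 0.42 with an adjusted p of 0.0133 by library size alone), while *GATA1* (0.64, adjusted p = 0.224), *TAL1* (0.56, adjusted p = 0.157) and *LDB1* (0.07, adjusted p = 0.807) did not pass; by library size alone they were -0.02, -0.10 and -0.59, with *LDB1* passing as lower (adjusted p = 0.0115).

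Of 25 other genes reported to act on gamma-globin, 13 were higher and 3 lower in HBZ-gated cells than in the 4 gates outside blood, with a median of 0.30, which turned to 8 higher and 8 lower by library size alone. The share that passed was near the 56.5% of all genes. *NFIX*, a nuclear factor I gene, was higher by 5.73 (SE 0.30, adjusted p = 2.57e-08) at 9.61 and 10.8 CPM, and *RUNX1* by 3.02 (SE 0.21, adjusted p = 9.27e-08), while *TOX* was lower (-3.01, SE 0.22, adjusted p = 1.44e-07). *RUNX1*, a factor of blood formation, was at 463 and 523 CPM in PF4-gated cells against 165 and 179 CPM in HBZ-gated cells. Against PF4-gated cells 10 of the 25 were higher and 7 lower (7 and 8 by library size alone), and between the *HBZ* terciles 4 were higher and 2 lower (1 and 16), beside 45.5% and 18.0% of all genes that passed.

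Genes known to depend on *KLF1* followed the same gates. Of 17 tested, 16 were higher in HBZ-gated cells than in the 4 gates outside blood and 1, *BCAM*, was lower, with a median of 4.93 against -0.15 for all genes, of which 24.9% were higher. *AHSP* was higher by 11.03 (SE 0.29, adjusted p = 1.74e-10) and *SLC4A1*, the red-cell anion exchanger, by 10.28 (SE 0.29, adjusted p = 2.78e-10). Between the *HBZ* terciles, 11 of 15 were higher in the highest tercile (9.65% of all genes), with a median of 1.08, whereas by library size alone 6 were higher and 3 lower, with a median of 0.42. *AHSP* was at 429 and 382 CPM in the lowest tercile and 841 and 1061 CPM in the highest, over terciles where *KLF1* moved from 206 and 191 CPM to 225 and 227 CPM.

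Genes linked to *MYB* in progenitors divided by lineage. Of 8 tested, 3 were higher and 3 lower in HBZ-gated cells than in the 4 gates outside blood (2 and 4 by library size alone), beside 56.5% of all genes that passed. *SPN*, the sialophorin CD43, was higher by 4.70 (SE 0.24, adjusted p = 9.03e-09) and *MYC* by 4.47 (SE 0.18, adjusted p = 1.25e-09), while the survival gene *BCL2* was lower (-1.90, SE 0.29, adjusted p = 8.88e-05). Lower in the highest than in the lowest *HBZ* tercile were 3 of the 8, *CD34*, *BCL2* and *SPN* (6 by library size alone), and 5 of the 8 were lower in the *C1QA* or *C1QB* than in the *MPO* sub-gate, where 8.40% and 6.13% of all genes were lower. *SPN* was at 94.1 and 82.6 CPM in the lowest *HBZ* tercile and 36.3 and 38.5 CPM in the highest.

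All 6 cell cycle genes were higher in HBZ-gated cells than in the 4 gates outside blood, *MKI67* by 2.55 (SE 0.22, adjusted p = 6.35e-07), *TOP2A* by 2.54 (SE 0.18, adjusted p = 1.38e-07) and *MCM2* by 2.45 (SE 0.17, adjusted p = 7.91e-08), where 24.9% of all genes were higher. Against PF4-gated cells 4 of the 6 were higher (20.1% of all genes), and 3 by library size alone. Against PTPRC-gated cells 0 of the 6 passed, with a median log2 difference of 0.01, beside 41.6% of all genes. Between the *HBZ* terciles *TOP2A* alone passed as higher in the highest tercile, and no longer did by library size alone (0.23, adjusted p = 0.413). Of the 10 globin genes, all were higher than in the 4 gates outside blood, *HBZ* by 9.43, *HBM* by 9.04 and *HBA2* by 8.09, and *HBZ* chose the gate. *HBB* and *HBD* were lower in HBZ-gated than in PF4-gated cells.

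Genes most like each regulator were taken by the mean over both organoids of Pearson's r of log2(CPM + 1) over 7 gates, among 15309 genes. They share libraries and depth with it, and so many genes over 7 points give high values for any profile. *KLF1* was most like *RFESD* and *GYPB* among those reported (r = 0.981 and 0.980), *BCL11A* like *BASP1*, *ZFP36L1* and *FBXL13* (0.968, 0.961 and 0.961) and *ZBTB7A* like *CAPZA1*, *RHOG* and *HNRNPAB* (0.969, 0.966 and 0.965). *MYB* was most like *IKZF1* (0.976), *POLQ* (0.957) and *MRPS16* (0.954), and *SOX6* like *CDH11* (0.987), *COL1A2* (0.983) and *COL4A5* (0.976). *NR2C1* was most like *SLC25A26* (0.956), *ZNF391* (0.951) and *E2F5* (0.947), and *NR2C2* like *PUM2* (0.984), *NIPBL* (0.981) and *ECPAS* (0.978). Among the pairs of regulators, r was at least 0.5 in size in both organoids (32.7, then 33.10) for the following. *KLF1* and *BCL11A* (-0.80 and -0.77), *ZBTB7A* and *SOX6* (-0.70 and -0.60), *ZBTB7A* and *NR2C1* (-0.63 and -0.62), *MYB* and *SOX6* (-0.60 and -0.58) and *MYB* and *NR2C1* (-0.54 and -0.60) ran in opposite directions over the gates. *KLF1* and *MYB* (0.52 and 0.69), *MYB* and *ZBTB7A* (0.52 and 0.68) and *BCL11A* and *SOX6* (0.54 and 0.54) ran together. The share of all gene pairs with r of this size over 7 gates was not computed. The *AFP* gate, 1 of the 7 points, held only 10 cells in organoid 33.10.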

How the data were processed

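Each organoid gave 1 droplet-based single-cell library. The deposited values are raw UMI counts for each gene in each barcode, which the authors obtained by running Cell Ranger with intronic reads against GRCh38 (both named in the submitters' processing notes), before the study's depth equalisation and removal of free RNA. The members and gene lists were chosen with earlier results of these data known.

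The study's filter was applied to cells (50 to 11000 genes detected, mitochondrial share under 30%). No doublet caller was run, but cells past several gates were left out. UMIs were summed per gate and organoid, giving 14 sums for 7 gates and 12 for the terciles of HBZ-gated and sub-gates of PTPRC-gated cells. Each set was fitted with edgeR 4.0.16 (R 4.3.3; TMM, filterByExpr, quasi-likelihood F test, Benjamini-Hochberg over all genes, threshold 0.05). The SE is the log2 fold change divided by the square root of F. The script was tested on simulated data. Cells are not replicates, and the p-values measure the spread between 2 organoids. Gates of the same organoid share their source: the correlation of their deviations from the gate means had a median of 0.162 over 21 pairs (-0.007 to 0.313), and the organoid block was an alternative. Other alternatives were DESeq2 1.42.0, no expression filter, halved or doubled gates, overlapping gates kept and deep cells left out. Further ones were 10% of the summed UMIs removed as free RNA, a 10% mitochondrial limit and globin genes left out. Scaling by library size alone, leaving out the *AFP* gate, the classes past 2 gates, the *PF4* terciles and the *COL3A1* sub-gates were added after seeing the data. Named genes were the 7 regulators, the 3 genes of each list with the largest change among those that passed against the 4 gates outside blood, *GATA1*, *TAL1*, *LMO2* and *LDB1*, and the 3 genes most like each regulator; 2 genes that this rule names are not reported here. Others (such as *HBB*, *HBD*, *HBG2*, *BCAM*, *CD34*) were chosen after their values were seen. Gene spans are from GENCODE, matched by Ensembl identifier. *HBG1* is nearly identical to *HBG2*, as is *HBA1* to *HBA2*, so the split of reads within each pair is uncertain. Of 18 *KLF1*-dependent and 9 *MYB*-linked genes, 1 each was not tested.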

Additional observations from a re-analysis of the deposited data

How the results depend on the processing

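Among the alternative values of the regulators' tests, 428 kept their direction and side of the threshold, 18 lost and 16 gained the call, and 12 changed sign. No difference that had passed with TMM changed sign, except those of *NR2C1* (-0.15) and *NR2C2* (-0.10) against the 4 gates outside blood by library size alone. That scaling also turned *NR2C2* against PTPRC-gated cells (-0.15) and *NR2C1* (-0.51) and *NR2C2* (-0.58) between the *HBZ* terciles. Between these terciles *NR2C1* turned without deep cells (-0.093) and *NR2C2* without deep cells (-0.0882), with halved gates (-0.00942) and with free RNA removed (-0.00441). Between the *PTPRC* sub-gates *KLF1* turned without deep cells (-0.15) and *SOX6* with halved (-1.13) and doubled gates (-0.49), and neither had UMIs left there once free RNA was removed. The number of genes that passed moved by over 1.5 times in 4 cases: *HBZ* against *PF4* with overlapping gates kept (6302 for 9877), the *HBZ* terciles (1697 for 2660) and the *PTPRC* sub-gates (1297 for 2208) without deep cells, and the *HBZ* terciles by library size alone (6976). The organoid block changed 4 calls of the regulators, all given above, and no other, with 11056, 10163, 12888, 11723, 3267 and 2753 genes called in the 6 comparisons.

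Leaving out an organoid leaves no replicate, so only log2 ratios of CPM without TMM remain. For *NR2C1* and *NR2C2* against the 4 gates outside blood they were -0.28 and -0.0109 in organoid 33.10 alone (without replicate 1) and -0.17 and -0.14 in organoid 32.7 alone (without replicate 2). Other called differences kept their sign in each organoid. Of the levels in CPM, 111 moved by less than 1 SD between organoids and 36 by more, 16 of these with halved gates, 15 with doubled gates and 5 with globin genes left out. Thinning to 3000 UMIs moved 91 shares of cells outside their intervals and left 7 inside. Low counts limit *BCL11A* in HBZ-gated cells (39 and 59 UMIs) and every regulator in the *AFP* gate of organoid 33.10 (10 cells).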
